A study of Nothobranchius furzeri with 20 samples.

Results

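The 100 genes described here were the liver transcripts that differed most between livers of the same set of samples in male turquoise killifish (Nothobranchius furzeri), an annual fish kept as a model of ageing. They were chosen by their spread: among the 7102 of 26739 deposited gene identifiers with a mean of 10 to 1000 CPM (read counts scaled to a library total of 1 M, mega), the SD of log2 CPM between livers was pooled over 3 sets of 5 livers, and the 100 identifiers with the largest pooled SD were taken. That SD ran from 1.15 to 4.89 in the chosen genes, with a median of 1.47, whereas the median over all 7102 genes was 0.23 and their 95th percentile 0.70. The rank order near the border was close, with 1.159 for Nfu_g_1_020050 and 1.153 for Nfu_g_1_014732 as the last inside, and 1.152 for Nfu_g_1_002546 and 1.146 for Nfu_g_1_006051 as the first outside. These SDs made the choice and are a description, not a test.

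All 20 livers came from males of the strain MZM-04/10p, and the groups differ in age and in swim-tunnel exercise. Exercised fish of 27 weeks gave 10 livers, whose titles run from JM132 to JM136 and from JM140 to JM144 under the same labels. Exercised fish of 9 weeks gave 5 livers (JM117 to JM121), and fish of 9 weeks without exercise gave 5 (JM124 to JM128). The sets below are these 4 runs of title numbers, and a liver is called by its title number. The SD of the rule used JM140-JM144, JM117-JM121 and JM124-JM128. JM132-JM136 had no part in that SD but entered the mean CPM, which was taken over all 20 libraries. Of the 100 genes, 7 averaged under 10 CPM over the 15 livers of the SD and were chosen only because JM132-JM136 was higher: Nfu_g_1_003876, Nfu_g_1_007386, Nfu_g_1_003954, Nfu_g_1_016386, Nfu_g_1_019884, Nfu_g_1_022222 and Nfu_g_1_024976. Results in JM132-JM136 are therefore also given for the 93 other genes, a setting added after the data were seen. Unexercised fish of 27 weeks are not among the labelled groups. Nothing in the labels ties each library to its own animal, and p-values here reflect the scatter of the libraries, which may be technical in part. At 9 weeks the title run and exercise cannot be told apart, and neither JM132-JM136 nor JM140-JM144 carries a label of its own.

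The liver makes plasma proteins, stores and releases glucose and fat, forms bile and clears foreign compounds. Its transcripts are known to follow feeding, time of day, hormones and infection, and MZM strains descend from wild-caught fish. A piece of liver also carries blood, bile duct and immune cells, and in bulk RNA fewer cells of a type and less RNA per cell cannot be told apart. No file pairs the identifiers with gene names, and 0 of 26739 matched the RefSeq gene table used here (assembly NfurGRZ-RIMD1). The genes are therefore given by identifier, without roles, and the liver label could not be checked against marker genes.

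Depth was 28.2 to 44.6 M counts in JM132-JM136, 24.8 to 34.9 M in JM140-JM144, 34.0 to 38.8 M in JM117-JM121 and 22.4 to 38.4 M in JM124-JM128. Transcripts among the 100 most abundant of a library made up 39.1% to 49.999% of its counts in JM132-JM136, against 52.6% to 53.9% in JM140-JM144, 49.0% to 52.5% in JM117-JM121 and 44.5% to 53.6% in JM124-JM128. Livers JM135 and JM136 stood apart, with 39.95% and 39.1% and TMM factors (the scaling for library composition) of 1.52 and 1.47. The results in JM132-JM136 are given with and without them.

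By median abundance the chosen genes were close to the rest of the CPM range, though 19 of them averaged 100 CPM or more, against 10.6% of all 7102 genes. Their mean over the 20 libraries ran from 10.1 to 473 CPM with a median of 23.6 CPM, beside a median of 24.1 CPM in all 7102 genes. Their lengths, recovered from the second deposited table, had a median of 2535 bp (240 to 13705 bp, n = 100), shorter than the 3395.5 bp of the 7100 genes with a length. As the rule implies, their range was wide: the median distance between the highest and the lowest liver was 6.38 log2 units, against 1.55 in all 7102 genes. At least 1 liver was under 1 CPM in 46 of the 100, against 0.986% of all 7102, and 10 had a liver with no count, against 0.141%. Depending on the library, 1 CPM stood for 21.3 to 50.7 counts.

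In 5 of the 100 genes, 1 liver held over 50% of the squared deviations from the set means, against 4.36% of all 7102 genes, and the median of the largest share was 28.9% in the chosen genes and 28.7% in all. The gene at the border, Nfu_g_1_014732, was one of the 5, with 63.9% of its squared deviations from liver JM144 at 0.892 CPM. Among the 15 livers of the rule, liver JM119 held the largest share for 18 genes, liver JM127 for 13, liver JM121 for 11 and liver JM124 for 10, while liver JM126 held it for 0. By set, the median SD of the chosen genes was 1.33 in JM140-JM144, 1.81 in JM117-JM121 and 1.48 in JM124-JM128, against 0.23, 0.19 and 0.22 for all 7102 genes.

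**Figure D1:**
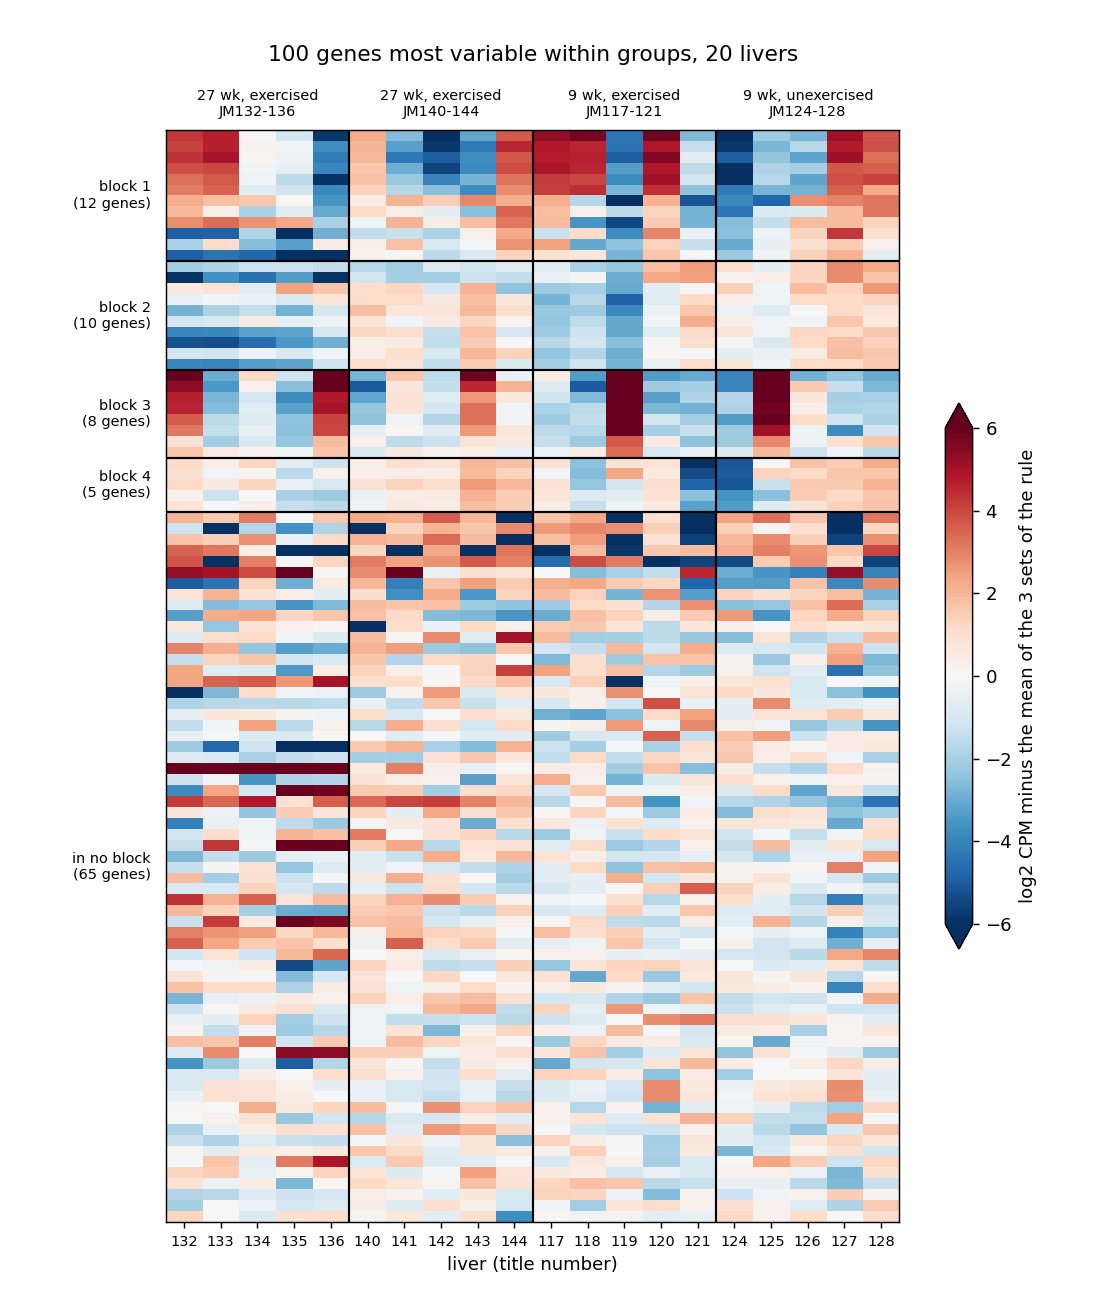
Heatmap of the 100 genes (rows, ordered by block and then by pooled SD, with the 4 blocks marked) in the 20 livers (columns, by set and title number). The colour is log2 CPM minus the mean of the 3 set means of the rule. Block 1 runs from high to low inside every set, block 3 is high in 5 livers, and block 4 is lowest in JM121 and JM124. The mean of block 2 is low in all 5 livers of JM132-JM136, though single genes such as Nfu_g_1_018575 are not.

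How the genes varied together was described by their correlations. Over the 4950 pairs, the median Pearson's r of the set-centred log2 CPM across the 15 livers of the rule was 0.00033, with 283 pairs at 0.6 or above and 180 at -0.6 or below. Clustering on 1 minus r, cut at an average r of 0.6, gave 42 clusters, of which 23 held a single gene and 15 held 2 to 4. The remaining 4 clusters, here called blocks, held 12, 10, 8 and 5 genes, 35 in all. Cut at an average r of 0.5 instead, 63 of the 100 genes fell into 7 blocks. These correlations share the 15 libraries and their scaling, and the blocks were made from them, so their cohesion in these 15 livers is a description.

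Block 1 (12 genes, mean r between members 0.78) swung widely inside every set. Nfu_g_1_005279 and Nfu_g_1_017718 had the highest mean r to the rest of the block, and the first had the second largest SD of all (4.79). It had 219, 291, 12.2, 5.27 and 0.140 CPM in livers JM132 to JM136 and 54.3, 1.87, 0.0880, 1.29 and 149 CPM in livers JM140 to JM144. In the exercised 9-week livers JM117 to JM121 it had 451, 600.3, 0.495, 630.2 and 1.79 CPM, and in the unexercised 9-week livers JM124 to JM128 it had 0, 2.55, 1.64, 394 and 156 CPM. It was thus above 50 CPM in 9 livers, at least 1 in every set, and the sets overlapped throughout. Nfu_g_1_017718 followed with 56.6, 86.4, 3.85, 3.00 and 0.200 CPM in livers JM132 to JM136 and 13.9, 0.290, 0, 0.121 and 78.2 CPM in livers JM140 to JM144. Its values were 94.3, 80.1, 0.0991, 98.6 and 1.23 CPM in livers JM117 to JM121 and 0, 0.444, 0.965, 91.4 and 48.2 CPM in livers JM124 to JM128. The same 9 livers held its 9 highest values, although only JM132, JM133, JM144, JM117, JM118, JM120, JM127 and JM128 passed 40 CPM. The block includes Nfu_g_1_014236 and Nfu_g_1_014237, whose identifiers are consecutive and whose r was 0.97, and near-identical copies could share reads.

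Block 1's level, the mean log2 CPM over its 12 genes, was 2.95 ± 2.38 in JM132-JM136, 3.25 ± 2.30 in JM140-JM144, 4.02 ± 3.21 in JM117-JM121 and 3.28 ± 3.23 in JM124-JM128 (SD, n = 5 each). These means lay closer together than the spread inside any set. Within JM132-JM136 the level was 5.03 and 5.43 in livers JM132 and JM133, 2.91 in JM134, 1.73 in JM135 and -0.32 in JM136. Of the other 7002 genes in the CPM range, 2 followed the block with r of 0.8 or more over the 15 livers and 14 ran against it with r of -0.8 or less.

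Block 2 (10 genes, mean r 0.78) varied less, with SDs of 1.198 to 1.496, and its mean level was lower in JM132-JM136 than in JM140-JM144 and JM124-JM128. Nfu_g_1_014450 had 2.26, 4.44, 6.06, 2.25 and 8.34 CPM in livers JM132 to JM136 and 57.2, 27.3, 27.97, 63.2 and 32.0 CPM in livers JM140 to JM144. It had 3.40, 3.76, 1.09, 12.5 and 51.4 CPM in livers JM117 to JM121 and 13.01, 9.57, 16.5, 38.4 and 27.4 CPM in livers JM124 to JM128. All 5 livers of JM132-JM136 were below all of JM140-JM144 and all of JM124-JM128, and they overlapped with JM117-JM121, where 3 livers were low and JM121 was high. Nfu_g_1_021435 had 151, 184, 154, 107 and 347 CPM in livers JM132 to JM136 and 448, 438, 303, 712 and 334 CPM in livers JM140 to JM144. It had 30.2, 65.3, 7.003, 126.8 and 470.2 CPM in livers JM117 to JM121 and 265, 165, 439, 466 and 518 CPM in livers JM124 to JM128. For this gene liver JM136 reached into the range of JM140-JM144, and 4 of the 5 exercised 9-week livers were lower than every liver outside their set but JM135.

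The level of block 2 was 2.86 ± 0.54 in JM132-JM136, 4.94 ± 0.72 in JM140-JM144, 3.77 ± 1.74 in JM117-JM121 and 5.61 ± 0.84 in JM124-JM128 (SD, n = 5 each). The 5 livers of JM132-JM136 ran from 2.17 to 3.62, beneath the lowest of JM140-JM144 (4.06) and of JM124-JM128 (4.43), whereas JM117-JM121 spanned 1.65 in liver JM119 to 6.09 in liver JM121. Block 2 was part of a wider pattern: 63 of the other 7002 genes followed it with r of 0.8 or more over the 15 livers and 18 ran against it with r of -0.8 or less, against 2 to 6 and 3 to 14 for the other blocks.

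Block 3 (8 genes, mean r 0.87) was high in a few livers. The floor of 10 CPM on the mean favours such genes. Nfu_g_1_012304, Nfu_g_1_012334, Nfu_g_1_014761, Nfu_g_1_008834 and Nfu_g_1_001656 would fall under it without liver JM119. In 6 of its genes, livers JM132, JM136, JM143, JM119 and JM125 were above all 15 others, which had 7.89 CPM or less. Nfu_g_1_007317, the gene with the largest SD of all (4.89), had 80.4, 0.0592, 2.10, 0.348 and 207 CPM in livers JM132 to JM136 and 0.0766, 2.90, 0.264, 54.2 and 0.657 CPM in livers JM140 to JM144. It had 1.22, 0.0319, 745, 0.0315 and 0.0558 CPM in livers JM117 to JM121 and 0, 462, 0.0715, 0.118 and 0.0539 CPM in livers JM124 to JM128. Every set thus held 1 or 2 livers above 50 CPM (JM132 and JM136, JM143, JM119 and JM125), and its other livers were at 2.90 CPM or less. Nfu_g_1_012334 had 29.1 and 37.6 CPM in livers JM132 and JM136, 11.9 CPM in JM143, 268 CPM in JM119 and 66.0 CPM in JM125, and 2.03 CPM or less in every other liver. Nfu_g_1_012304 had 29.4, 32.5, 7.10, 244 and 79.5 CPM in the same 5 livers, in that order, and 2.13 CPM or less elsewhere. The other 2 genes were less clear-cut, Nfu_g_1_011014 with 3.48 to 16.6 CPM in the 15 other livers and Nfu_g_1_001656 with 16.2 CPM in JM128, above its 9.64 CPM in JM132. The block also holds Nfu_g_1_007316, whose identifier precedes that of Nfu_g_1_007317 and whose r with it was 0.93.

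The level of block 3 was 1.66 ± 3.19 in JM132-JM136, 1.04 ± 1.88 in JM140-JM144, 0.85 ± 3.82 in JM117-JM121 and 0.91 ± 3.25 in JM124-JM128 (SD, n = 5 each). The high livers stood at 4.72 (JM132), 5.36 (JM136), 3.85 (JM143), 7.65 (JM119) and 6.52 (JM125), and no other liver exceeded 1.31. High livers occurred at both ages and with or without exercise.

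Block 4 (5 genes, mean r 0.90) was present in most livers and low in a few. Nfu_g_1_003285 had 25.7, 16.4, 27.3, 8.55 and 5.63 CPM in livers JM132 to JM136 and 20.2, 28.04, 21.7, 65.6 and 44.3 CPM in livers JM140 to JM144. It had 20.6, 2.20, 5.15, 21.4 and 0.335 CPM in livers JM117 to JM121 and 0.255, 4.33, 33.5, 33.5 and 47.3 CPM in livers JM124 to JM128. The low livers were JM121 and JM124, 1 exercised and 1 not. Nfu_g_1_021825 was lowest in the same pair, with 1.004 CPM in liver JM121 and 0.893 CPM in liver JM124, and had 3.09 to 34.1 CPM in the other 18. The level of the block was 3.79 ± 0.95 in JM132-JM136, 5.04 ± 0.76 in JM140-JM144, 3.02 ± 2.22 in JM117-JM121 and 3.91 ± 2.62 in JM124-JM128 (SD, n = 5 each).

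**Figure D2:**
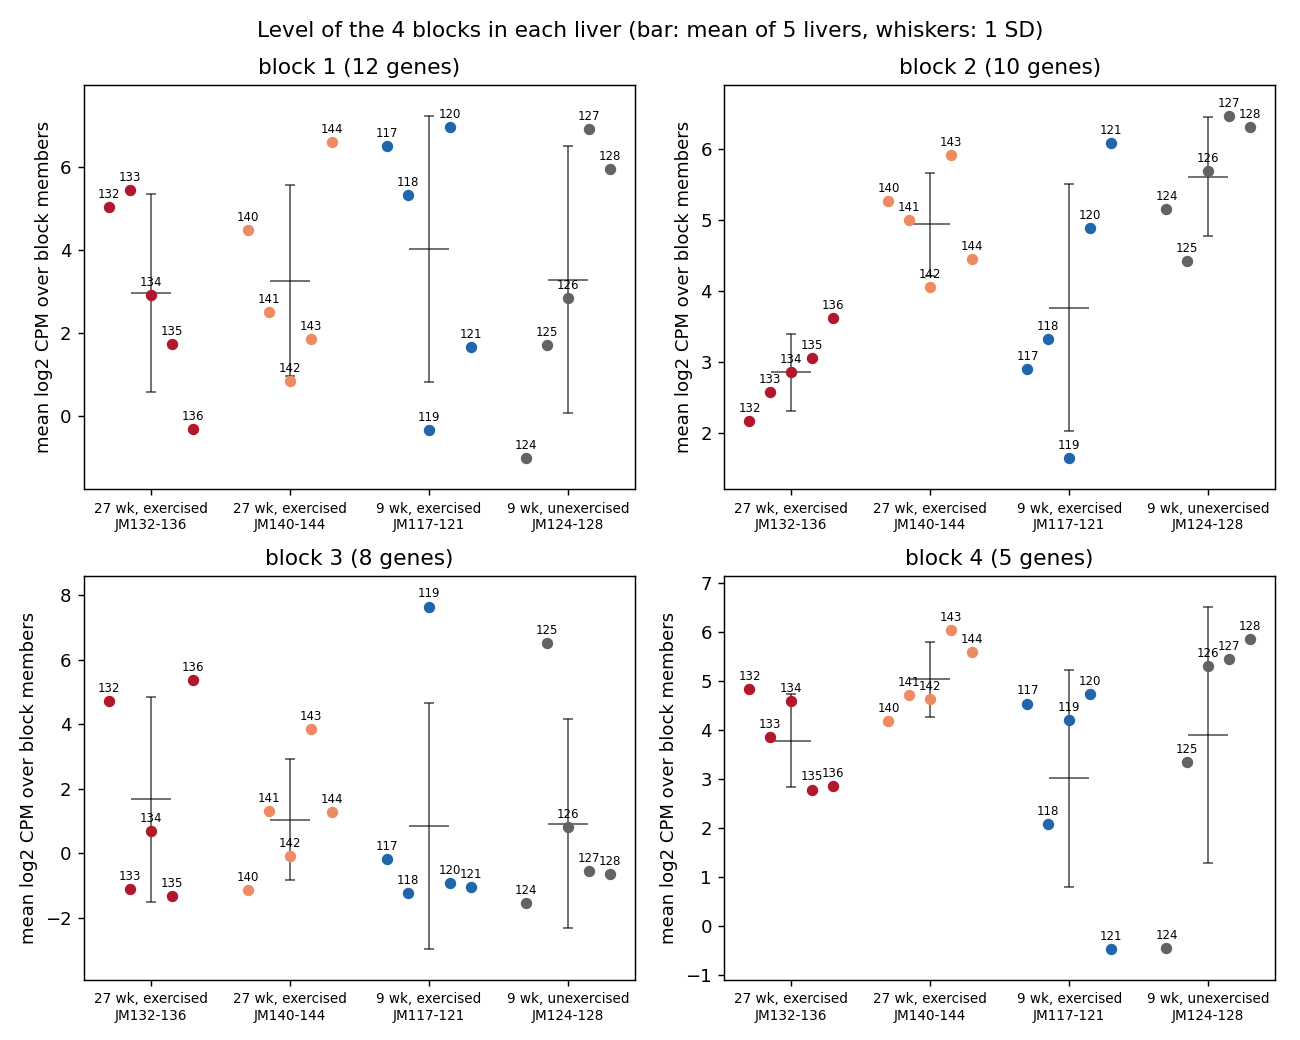
Mean log2 CPM over the genes of each block, one panel per block and one point per liver, with the bar at the mean of 5 livers and whiskers of 1 SD. In block 3, livers JM132, JM136, JM143, JM119 and JM125 lie at 3.85 or more and all others at 1.31 or less, and in block 2 all of JM132-JM136 lie under all of JM140-JM144 and JM124-JM128.

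The blocks did not rise and fall as one. Over the 15 livers, block scores correlated with r of 0.61 for blocks 1 and 4, -0.55 for blocks 2 and 3, -0.42 for blocks 1 and 3, 0.32 for blocks 1 and 2, 0.23 for blocks 3 and 4 and -0.09 for blocks 2 and 4, as a description over shared libraries. Spearman's rho was 0.61, -0.49, -0.08, 0.34, 0.32 and 0.22 in the same order. By rank, blocks 1 and 3 were thus hardly related, and the sign for blocks 2 and 4 changed. Liver JM119, for instance, was the highest liver for block 3 and the lowest of its set for blocks 1 and 2, at levels of -0.34 and 1.65. Liver JM127 was high for blocks 1, 2 and 4, at 6.91, 6.47 and 5.45, and low for block 3, at -0.56.

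The block scores were also set against 3 measures of the libraries: total count, TMM factor and the share of the 100 most abundant transcripts. None of the 12 relations passed after Benjamini-Hochberg adjustment, in permutation tests within sets over 15 livers. The smallest raw p was that of block 2 and total count (Pearson's r 0.51, permutation p = 0.0166, adjusted p = 0.199; Spearman's rho 0.53, permutation p = 0.0411, adjusted p = 0.247), and r was 0.41 without livers JM125 and JM127. Block 1 and the share of abundant transcripts had r 0.51 (permutation p = 0.106, adjusted p = 0.425) and rho 0.55 (permutation p = 0.0402, adjusted p = 0.247), with r 0.38 without the same livers. Not every relation weakened without these 2 livers. For the share of abundant transcripts, r went from 0.05 to -0.60 in block 2 and from 0.44 to 0.51 in block 4, and no test was run without the 2 livers. The part of these measures in the blocks was otherwise not tested.

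In JM132-JM136, which had no part in the making of the blocks, blocks 1, 3 and 4 again moved together, block 3 most closely. Block 2 did so only in part. The measure is the variance of the block mean as a share of the mean variance of its genes, which is 1 where all genes move alike and 1 divided by the number of genes where they vary independently and equally. For block 3 it was 0.958 in JM132-JM136, against 0.125 for independent genes. For block 4 it was 0.815 against 0.200, and for block 1 0.566 against 0.0833. For block 2 it was 0.364 against 0.1, the lowest of the blocks, beside 0.492 in JM140-JM144, 0.921 in JM117-JM121 and 0.786 in JM124-JM128. With 1 liver of JM132-JM136 left out, block 2 gave 0.240 to 0.439. Some of its genes ran opposite there: Nfu_g_1_002545 was highest in JM135 (13.9 CPM) and lowest in JM136 (2.29 CPM). Nfu_g_1_021435 was lowest in JM135 (107 CPM) and highest in JM136 (347 CPM). Block 1 was not uniform there either. Its member Nfu_g_1_021215, chosen after its values were seen, had 2.73, 2.88 and 11.2 CPM in livers JM132, JM133 and JM136. Nfu_g_1_005279 had 219, 291 and 0.140 CPM in the same livers. The whole list of 100 genes gave 0.0256. Without Nfu_g_1_003876, which entered the list only through its level in JM132-JM136, block 1 gave 0.559. Without livers JM135 and JM136 the values were 0.939 for block 3, 0.770 for block 4, 0.350 for block 1 and 0.330 for block 2.

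The chosen genes also had a wide spread between the livers of JM132-JM136. The median SD between these 5 livers was 1.32 in the chosen genes and 0.29 in all 7102, and 67 of the 100 exceeded the 95th percentile of all 7102 genes (1.09), a mark passed by 5.01% of them by construction. Of the 7 genes that entered only through JM132-JM136, 5 were among the 67, and their spread there is tied to the choice. For the 93 others the median SD was 1.29, against 0.29 in the 6856 genes that average 10 to 1000 CPM over the 15 livers, and 68 exceeded the 95th percentile of those (0.975). Without livers JM135 and JM136 the median SD of all 100 genes was 1.07. It was 0.18 in all genes of the CPM range over the remaining libraries. Of the 100, which include the 7, 72 then exceeded the 95th percentile of 0.67. With all 5 livers, all but 1 of the 100 were above the median of the 7102 genes. All 12 genes of block 1 were past the 95th percentile, as were 7 of 8 in block 3, 5 of 10 in block 2, 2 of 5 in block 4 and 41 of the 65 in no block. No test is given for these counts.

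The extremes in JM132-JM136 were both outside the blocks and were chosen after their values were seen. Nfu_g_1_017087 had the smallest SD there, 0.13, with 2.03, 2.33, 2.42, 2.32 and 2.61 CPM in livers JM132 to JM136. It had 5.75, 2.71, 23.3, 2.95 and 4.65 CPM in livers JM140 to JM144, 3.85, 9.35, 3.47, 109.9 and 5.66 CPM in livers JM117 to JM121, and 5.23, 54.5, 4.43, 4.70 and 5.99 CPM in livers JM124 to JM128. Its peaks were in single livers, JM142, JM120 and JM125, and JM132-JM136 had none. Nfu_g_1_015724 had the largest SD, 5.79, and is described with the next group.

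**Figure D3:**
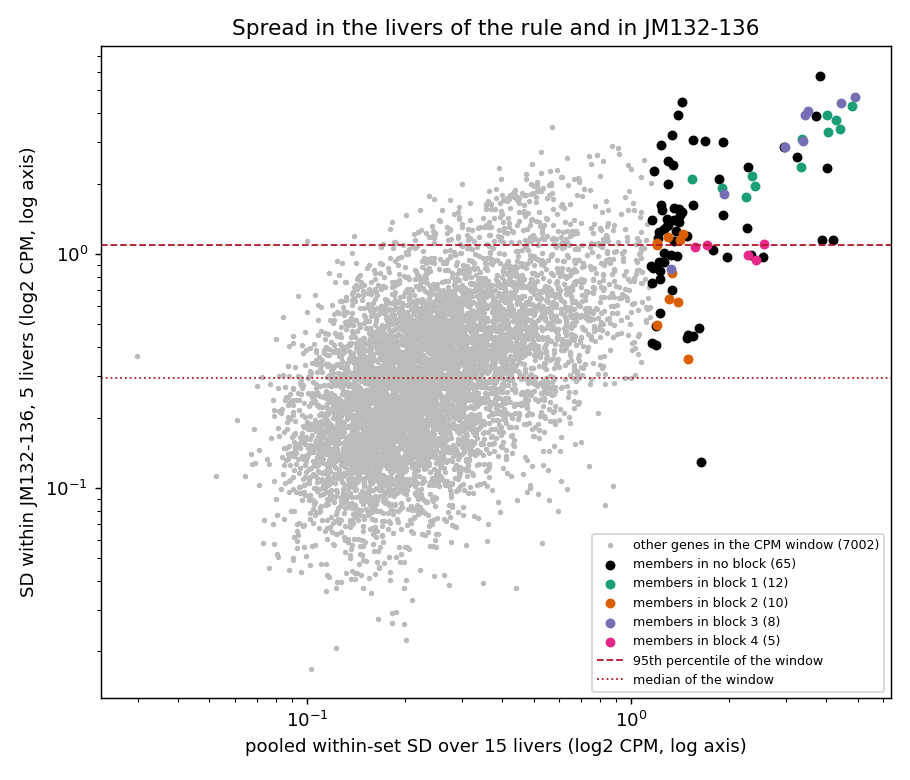
SD between the 5 livers of JM132-JM136 (vertical, log axis) against the pooled within-set SD over the 15 livers of the rule (horizontal, log axis), one point per gene, with the 100 chosen genes coloured by block. The chosen genes lie right of 1.15 by the rule; 67 of them are above the dashed line, the 95th percentile of all 7102 genes in JM132-JM136.

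A few genes split the livers into a low and a high group. In 6 of the 100, the 20 livers fell into a group under 1 CPM and a group at least 3 log2 units higher, with 2 or more livers on each side, a pattern found in 7 of all 7102 genes (0.0986%). These genes and this criterion were chosen after the values were seen. Nfu_g_1_005594 had 23.9, 16.8, 47.6, 5.25 and 17.4 CPM in livers JM132 to JM136 and 27.3, 25.2, 71.9, 23.1 and 0 CPM in livers JM140 to JM144. It had 18.9, 28.8, 0, 11.6 and 0 CPM in livers JM117 to JM121 and 30.7, 57.4, 18.97, 0.0295 and 51.9 CPM in livers JM124 to JM128. Livers JM144, JM119, JM121 and JM127 had at most 1 count of it, and the other 16 had at least 226 counts.

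Nfu_g_1_005580 was low in exactly the same 4 livers, again with at most 1 count there and at least 3.09 CPM in the other 16. Across those 16 livers the ratio of Nfu_g_1_005594 to Nfu_g_1_005580 stayed between 1.203 and 1.909 in CPM. Both are of similar length, 1647 and 1818 bp, and reads shared between near-identical copies could link them, which was not tested. The 4 livers without them spanned both ages and both exercise labels, and all 5 livers of JM132-JM136 had them.

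The other 4 split the livers differently. Nfu_g_1_015724 had 0 and 0.0998 CPM in livers JM135 and JM136 and 282, 212 and 31.3 CPM in livers JM132 to JM134. It was also under 1 CPM in JM141, JM143, JM117 and JM119, with at least 31.3 CPM in all 14 others. Nfu_g_1_004984 was at most 0.209 CPM in livers JM133, JM117, JM120, JM121, JM124 and JM128 and at least 6.88 CPM in the other 14. Nfu_g_1_015217 was at most 0.0766 CPM in JM133, JM140, JM121 and JM127 and at least 1.09 CPM in the other 16. Nfu_g_1_022154 was under 1 CPM in JM132, JM133, JM135, JM141, JM121, JM124, JM125 and JM127 and at least 10.8 CPM in the other 12. No set was wholly on one side for these 4 genes except JM124-JM128 for Nfu_g_1_015724 and JM140-JM144 for Nfu_g_1_004984, which were on the high side. Liver JM121 was on the low side in 5 of the 6.

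**Figure D4:**
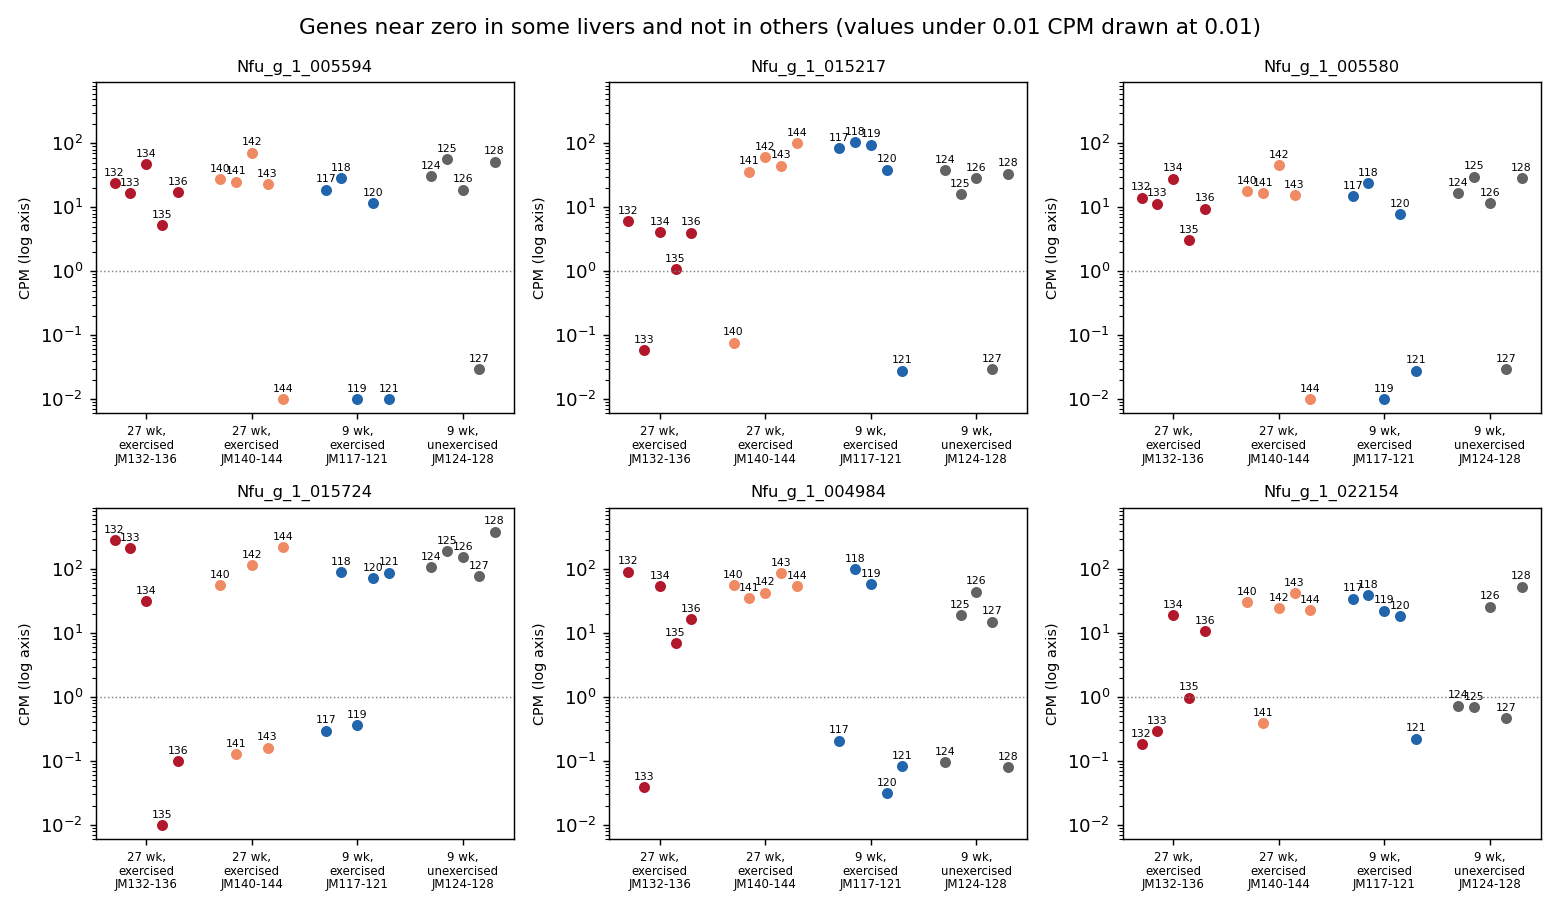
CPM (log axis, values under 0.01 drawn at 0.01) of the 6 genes that split the livers, one panel per gene and one point per liver, by set. The low livers are at 0.976 CPM or less and the high ones at 1.09 CPM or more, and the panels of Nfu_g_1_005594 and Nfu_g_1_005580 share their 4 low livers.

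Livers JM135 and JM136, which stood apart in composition, were also compared with the rest. In 5 of the 100 genes both were above all 18 other livers and in 7 both were below, against 9.77% and 15.6% of all 7102 genes. The rule favours a wide range in 15 of these 18 livers, so nothing is read from these counts. The higher ones include a cluster of 4 genes, too small to count as a block (mean r 0.76 over the 15 livers). In those livers its genes Nfu_g_1_022222 and Nfu_g_1_003954 were low, at 3.41 and 5.67 CPM or less. Its member Nfu_g_1_019655, chosen after its values were seen, had 6.70, 312, 24.8, 1066 and 844 CPM in livers JM132 to JM136, 8.27 to 62.5 CPM in JM140-JM144, 5.55 to 38.2 CPM in JM117-JM121 and 5.29 to 73.9 CPM in JM124-JM128. Nfu_g_1_003954 of the same cluster had 0.390, 23.2, 1.02, 151 and 138 CPM in livers JM132 to JM136 and at most 5.67 CPM in the 15 others. Liver JM133 was the next highest in both. Nfu_g_1_003954 and Nfu_g_1_022222 are among the 7 genes that entered the list only through JM132-JM136.

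Few of the chosen genes placed the whole of JM132-JM136 outside the other 15 livers. All 5 of its livers were above all 15 others in 2 genes, Nfu_g_1_007386 and Nfu_g_1_024976, and below them in 4, Nfu_g_1_017087, Nfu_g_1_020030, Nfu_g_1_002545 and Nfu_g_1_011133. In all 7102 genes the shares were 13.1% and 12.7%. The 94 others overlapped, and without livers JM135 and JM136 4 genes lay above and 6 below. The rule favours genes with a wide range in the 15 livers, and the 2 genes above average under 10 CPM in those livers and were chosen only because JM132-JM136 is high, so nothing is read from these counts. Among the 93 other genes, 0 lay above and 4 below. Nfu_g_1_020030, a member of block 1, had 6.31, 9.31, 7.37, 0.302 and 0.938 CPM in livers JM132 to JM136, 64.4 to 488 CPM in JM140-JM144, 28.1 to 621 CPM in JM117-JM121 and 41.0 to 833 CPM in JM124-JM128. It was the sole gene of its block with all of JM132-JM136 outside the other livers.

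Group differences were tested gene by gene in one edgeR fit of all 4 sets over 17118 genes, and all 100 chosen genes passed the filter on low counts. Between exercised and unexercised livers at 9 weeks, 1 of the 100 passed an adjusted p of 0.05, the 1 being lower with exercise, against 6.19% of all genes tested (1.82% higher and 4.38% lower) and 6.36% of the 7102. Without exercised liver JM120 3 passed, against 5.02% of all genes tested, and without JM121 7, against 7.35%. Without JM117, JM118, JM119, JM126 or JM128 0 passed, against 2.33% to 3.5%. By an unadjusted p under 0.05, 3643 of all genes tested would be called. The one gene, Nfu_g_1_018575 of block 2, had 1.16, 1.31, 0.628, 3.40 and 5.86 CPM in exercised livers JM117 to JM121, against 14.9, 4.69, 19.9, 13.5 and 34.4 CPM in unexercised livers JM124 to JM128. Exercised liver JM121 was above unexercised liver JM125, and otherwise the groups were apart. It was lower by 2.81 on the log2 scale with exercise. Its mean was 2.47 CPM in JM117-JM121, 17.5 CPM in JM124-JM128, 13.9 CPM in JM132-JM136 and 10.5 CPM in JM140-JM144. Without the unexercised livers it would average under 10 CPM, so its direction is tied to the choice of genes and no test is given for it. That call was lost in limma-voom and without exercised livers JM117, JM118, JM119 or JM120 or unexercised livers JM126 or JM128. It was also lost with the 3 groups of the labels in the fit, where 3 of all genes tested passed (0.0175%).

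The rule ranked genes by the spread inside the sets, not by their means, though the mean CPM had to reach 10. A wide spread also bears on every test. The median SE of the log2 fold change between exercised and unexercised livers was 0.82 in the chosen genes and 0.17 in all 7102, while the median size of the fold change was 0.69 and 0.20. The low share of calls thus came with much larger errors. Genes chosen for a wide spread differ more in their means by scatter alone. The larger fold changes are therefore not read as group differences. In block 1, with a median SE of 1.47, and in block 3, with 1.91, none of the genes passed between exercised and unexercised livers.

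Between JM140-JM144 and exercised 9-week livers, 4 of the 100 rose and 3 fell, against 17% of all genes tested (9.39% higher and 7.61% lower) and 22.1% of the 7102. Without exercised liver JM118 or JM120 4 passed, against 12.8% and 14.1% of all genes tested, and without JM121 12, against 15.9%. Nfu_g_1_002009 had 137, 212, 228, 103 and 49.9 CPM in livers JM140 to JM144, against 4.06, 13.5, 47.1, 1.04 and 11.6 CPM in livers JM117 to JM121. The groups did not overlap, though liver JM119 came close to JM144, and it was higher by 3.25 on the log2 scale in JM140-JM144. In unexercised 9-week livers it had 0.539 to 4.05 CPM, and in JM132-JM136 it ran from 23.3 CPM in liver JM135 to 368 CPM in liver JM134. Nfu_g_1_001062 had 252 to 1746 CPM in JM140-JM144, against 36.4 to 316 CPM in exercised 9-week livers, so the groups overlapped through liver JM141, and rose by 2.33 ± 0.69 on the log2 scale (SE, edgeR adjusted p = 0.0247). That call was lost without exercised livers JM118 or JM120 or liver JM142 (edgeR adjusted p = 0.0634, 0.0515 and 0.0715).

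Nfu_g_1_005922 had 114, 49.3, 49.9, 54.1 and 42.1 CPM in livers JM140 to JM144, against 56.7, 78.4, 136.03, 909 and 1107 CPM in livers JM117 to JM121. The groups overlapped through liver JM140, and the exercised livers JM120 and JM121 were far above the rest. It fell by 2.88 ± 0.78 on the log2 scale (SE, edgeR adjusted p = 0.0165), and by limma-voom the change was -1.97 (adjusted p = 0.0684). Nfu_g_1_002545 showed the same outline, with 33.9 to 64.2 CPM in JM140-JM144, against 18.6 CPM in liver JM119 and 109 to 802 CPM in the other exercised 9-week livers. It fell by 2.85 ± 0.79 (SE, edgeR adjusted p = 0.0185) on the log2 scale, and by limma-voom the adjusted p was 0.108.

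Between JM132-JM136 and exercised 9-week livers, 13 of the 100 rose and 16 fell, against 58% of all genes tested (29.9% higher and 28.1% lower) and 66.5% of the 7102. Scaled by library totals, which move the median of all genes by 0.48 in this comparison, 17 rose and 10 fell, against 58% of all genes tested. Among the 93 genes that did not enter through their level in JM132-JM136, 8 rose and 16 fell. Among all 100 without livers JM135 and JM136, 9 rose and 9 fell, against 49.7% of all genes tested. By block, with all livers, 2 of 12 in block 1 fell, and 0 of 8 in block 3 and 0 of 5 in block 4 passed. In block 2, 1 of 10 rose and 5 fell (60% called, against 66.5% of the 7102). The other 21 of the 29 lay outside the blocks, 32.3% of the 65 genes there. Nfu_g_1_020030, whose values are given above, fell by 5.98 ± 1.07 on the log2 scale (SE, edgeR adjusted p = 0.000111). Nfu_g_1_002545 had 2.29 to 13.9 CPM in JM132-JM136 and fell by 5.64 ± 0.90 (SE, edgeR adjusted p = 3.31e-05). The largest differences upward were those of Nfu_g_1_007386 (log2 8.05) and Nfu_g_1_003954 (log2 5.95), both high in JM132-JM136 by the choice of genes, so no test is given for them. Of Nfu_g_1_003954, livers JM132 and JM134 had 0.390 and 1.02 CPM, inside the range of exercised 9-week livers (0.198 to 2.36 CPM). This comparison and the previous one share the exercised 9-week livers.

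Between JM132-JM136 and JM140-JM144, both exercised at 27 weeks, 7 of the 100 rose and 15 fell, against 50.4% of all genes tested (26.9% higher and 23.5% lower) and 59.2% of the 7102. Scaled by library totals, with a shift of 0.59 in the median of all genes, 10 rose and 11 fell, against 57.3% of all genes tested. Without livers JM135 and JM136, 2 rose and 8 fell, against 42.5%. Among the 93 genes that did not enter through their level in JM132-JM136, 3 rose and 15 fell. Nfu_g_1_011133 had 0.546, 0.493, 0.874, 2.02 and 2.99 CPM in livers JM132 to JM136, against 29.3, 32.8, 8.05, 64.9 and 22.2 CPM in livers JM140 to JM144. The sets did not overlap, and it fell by 4.52 ± 0.77 on the log2 scale (SE, edgeR adjusted p = 0.000101). Nfu_g_1_007386 had 1061, 1105, 677, 1454 and 775 CPM in livers JM132 to JM136, against 4.48, 24.3, 3.83, 2.06 and 3.24 CPM in livers JM140 to JM144. That difference of 7.03 on the log2 scale, and that of 4.52 for Nfu_g_1_003954, which was 1.62 without livers JM135 and JM136, follow in direction from the choice of genes and are given without a test. Block 2 accounted for 6 of the 15 that fell, and blocks 3 and 4 for none. These 6 are 60% of the 10 genes of block 2, and none of the block rose. Of the 7102 genes, 2183 fell, and 59.2% were called in either direction. The genes of block 2 vary together, so nothing is read from this count.

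**Figure D5:**
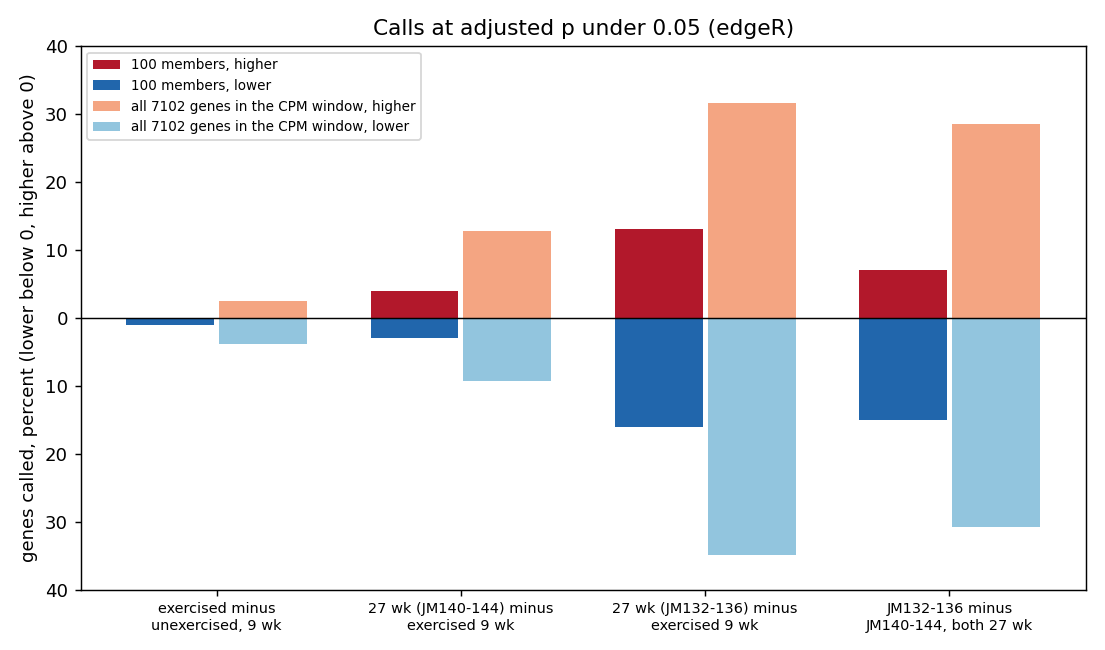
Share of genes called at edgeR adjusted p under 0.05 in the 4 comparisons, higher above 0 and lower below, for the 100 chosen genes and for all 7102 genes of the CPM range. The shares are 29% in the chosen genes and 66.5% in all 7102 between JM132-JM136 and exercised 9-week livers, and 1% and 6.36% between exercised and unexercised livers. Bars that involve JM132-JM136 include the 7 genes that entered the list only through their level there.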

How the data were processed

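Liver RNA libraries (TruSeq RNA v2, per the labels' protocols) of 20 fish samples were used. The authors deposited raw counts per gene identifier, used as deposited. The tools named, per the submitters' processing notes, include featureCounts 1.4.6-p4, STAR 2.4.1d and bcl2fastq 1.8.4. Which genome build and strand setting were used, and how multiply mapping reads were handled, is not given in the sources used here. The authors also deposited an RPKM table, treated as a score because its library totals are cycled down the rows, and it served for gene lengths alone.

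The 100 genes, the lists and the tests were chosen with earlier results of these data known. Log2 CPM carried TMM scaling and a prior count of 2 (edgeR 4.0.16, R 4.3.3). CPM values are TMM-scaled. Blocks came from average-linkage clustering of 1 minus Pearson's r of set-centred values, cut at 0.4, with at least 5 genes. Differences were tested with edgeR's two-sided quasi-likelihood F-test in one fit of the 4 title sets after filterByExpr, with Benjamini-Hochberg adjustment over 17118 genes, and tested on simulated data. SEs were derived from the F statistic. Relations of blocks to library measures used 100000 permutations within sets, two-sided. Named were the 2 genes of largest SD, those at the border of the choice, 2 central genes per block, and at most 2 higher and 2 lower calls per comparison. Genes named by any other criterion were chosen after their values were seen, whether or not they are marked so. Alternatives were DESeq2 1.42.0 (size factors and Wald test), limma 3.58.1 voom, upper-quartile scaling, library totals, no filter, other fits and each library left out. No pair of libraries within a set agreed within counting noise.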

Additional observations from a re-analysis of the deposited data

Results flagged for a closer look

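Of 96 groups of 5 values examined, 6 held 1 liver far from the other 4, and about 1 in 20 does so by chance where values are not chosen for their spread. All 6 lie among the 72 groups of the sets whose spread chose the genes, so that rate does not apply to them. In exercised 9-week livers, liver JM119 stood at 7.65 in the level of block 3 (mean log2 CPM), at 8.07 in Nfu_g_1_012334 and at 7.93 in Nfu_g_1_012304. In unexercised 9-week livers, liver JM125 stood at 8.85 in Nfu_g_1_007317 and at 6.05 in Nfu_g_1_012334. These 5 are all block 3 and are not independent of each other. Nfu_g_1_012334 and Nfu_g_1_012304 passed the floor of 10 CPM only with liver JM119, so their height in it is tied to the choice of genes. In JM140-JM144, liver JM140 stood at 6.84 in Nfu_g_1_005922. The part of library quality in them was not tested.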

How the results depend on the processing

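No paired analysis was possible because the titles share no replicate numbers between groups. Of the 100 genes, 61 were chosen with the median absolute deviation in place of the SD, and 87 to 96 with 1 library left out. Genes in blocks were 63, in place of 35, with the tree cut at 0.5, and 33 to 47 with 1 library left out. With 1 library left out, 7 to 12 of the 12 genes of block 1 stayed in 1 block. So did 7 to 10 of 10 in block 2, 7 to 8 of 8 in block 3 and 5 of 5 in block 4. The 1 call between exercised and unexercised livers was 2 with library totals and in the fit of 9-week libraries, 6 with the DESeq2 Wald test, 0 with limma-voom and with 3 groups in the fit, and 0 to 7 with 1 library left out (0 without liver JM117, JM118, JM119, JM126 or JM128, 3 without JM120, 7 without JM121). For JM140-JM144 against exercised 9-week livers the 7 calls were 14 by the Wald test, 13 with all 10 livers of 27 weeks, and 4 to 12 with 1 library left out (4 without liver JM118 or JM120, 12 without JM121). The 29 calls of JM132-JM136 against exercised 9-week livers were 19 by limma-voom, 18 without livers JM135 and JM136 and 22 to 34 with 1 library left out. The 22 calls between the 27-week sets were 14, 10 and 17 to 23 in the same order, and 31 in the fit of 27-week libraries. The share called over all genes tested moved across the alternatives too. For these comparisons, in order, it ran from 0.0175% to 12.7%, 11.5% to 30.4%, 45% to 58.2% and 38.3% to 57.3%. Without livers JM135 and JM136, genes with all of JM132-JM136 beyond the others were 10, in place of 6 (6 to 8 with 1 library left out), and the median SD in JM132-JM136 was 1.07 (1.18 to 1.41 with 1 left out). Leaving out JM135 and JM136 together was chosen after seeing the data. In each case the cause was not tested beyond the smaller number of libraries. Library totals shifted the median of all genes by -0.25 between exercised and unexercised livers, and higher calls over all genes tested were then 4% in place of 29.3% there, 77.6% in place of 51.5% for JM132-JM136 against exercised 9-week livers and 84.3% in place of 53.4% between the 27-week sets. No named gene reversed under the alternatives run. Depth limits values under about 0.1 CPM, which rest on a few counts.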
